A study of Bos indicus with 5 samples.

Results

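The genes described here encode receptors for oxytocin, vasopressin, noradrenaline, adrenaline and acetylcholine, the hormones and nerve transmitters that set the tone of the muscle wall of the oviduct. A list of 8 genes (OXTR, AVPR1A, ADRA1A, ADRA1B, ADRA2A, ADRB1, CHRM2 and CHRM3) was looked up by gene symbol among the 24616 genes of the ampulla read count table. Of the 8, 7 were found, and ADRA2A was not analysed here. Reads were present for 6 of the 7, and 4 (AVPR1A, ADRB1, CHRM2 and CHRM3) had the mean normalized read count over 5 that was needed for a test between groups. Their values are read counts divided by a scaling factor of each library, so that libraries can be compared for a gene, but they are not divided by transcript length and do not rank the genes by abundance.

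All of these proteins are receptors that cross the cell membrane and act through G proteins. In smooth muscle, OXTR, AVPR1A, the alpha-1 receptors ADRA1A and ADRA1B, and CHRM3 couple to the Gq class, which activates phospholipase C, releases calcium from internal stores and contracts the cell. CHRM2 and the alpha-2 receptors couple to the Gi class, which lowers cyclic AMP, whereas the beta receptors couple to the Gs class, which raises cyclic AMP and relaxes the muscle. In the oviduct these receptors belong to the control of the contractions that move the egg and embryo, by the sympathetic nerves of the wall and by hormones in blood.

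RNA sequencing was done on the ampulla, the wide part of the oviduct near the ovary, of multiparous Nelore cows (Bos indicus), 1 library for each of 5 animals. The study asked whether a larger ovulatory follicle with a larger corpus luteum (group LF/LCL, 2 libraries) went with another oviductal transcriptome than a smaller follicle with a smaller corpus luteum (group SF/SCL, 3 libraries). All cows were pre-synchronized with a GnRH agonist and a prostaglandin F2alpha analog, received a 1 g progesterone device and 2 mg of estradiol benzoate on day -10, the prostaglandin analog at device removal and again later that day, and the GnRH agonist on day 0. The LF/LCL cows were also given the prostaglandin analog on day -10 and had the device for a shorter time, taken out 42 h before the GnRH injection against 30 h in SF/SCL. Tissue was taken on day 4 through the whole thickness of the wall on the side of the corpus luteum. The sequenced cows were the most extreme of a larger number for follicle size, corpus luteum size and hormone levels, and 1 further LF/LCL library was left out by the study for its quality. No cow was left without hormone treatment, so neither group is an untreated control.

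The libraries held 13418278 to 19592174 reads assigned to genes, 78245436 in all, and LF/LCL replicate 1 was the shallowest and SF/SCL replicate 2 the deepest. The smooth muscle markers, 15 entries of 14 symbols in the table, were present in every library, and the most abundant by mean value were ACTA2, MYH11 and DES, which make the actin, myosin and intermediate filament of smooth muscle. Their summed normalized read counts were 162925 and 89390 in LF/LCL, against 59437, 61893 and 29419 in SF/SCL, so that both LF/LCL libraries lay above every SF/SCL library. All 15 entries had a positive log2 fold change (LF/LCL over SF/SCL, median 1.26 against 0.01 over all genes tested), 12 did not overlap between the groups (30.1% of all genes tested), 11 passed 0.05 before adjustment in limma (11.5%) and 0 after it (0%), and 5 passed after adjustment in DESeq2 (2.89%). In whole tissue, fewer cells of a type and less RNA per cell cannot be told apart. The ciliated cell markers went the other way, with all 9 tested higher in every SF/SCL library than in either LF/LCL library, as 15.1% of all genes were.

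Among the Gq-coupled hormone receptors, OXTR, the oxytocin receptor (ENSBTAG00000019772), was detected at only 24 reads over the 5 libraries. Its normalized read counts were 0 and 3.87 in LF/LCL replicates 1 and 2, and 1.04, 12.4 and 3.22 in SF/SCL replicates 1, 2 and 3. These came from 0, 4, 1, 16 and 3 reads. The highest value was in SF/SCL replicate 2, which held 16 of the 24 reads, and the groups overlapped. The exact 95% Poisson interval of that library was 7.11 to 20.2 normalized reads. It lay above the fixed floor for a count of 0 in LF/LCL replicate 1, 3.52 normalized reads (3 reads). It also lay above the exact Poisson bound there, 4.33. But it lay above the interval of SF/SCL replicate 1, in its own group, as well (upper bound 5.79). It overlapped those of LF/LCL replicate 2 (upper bound 9.91) and SF/SCL replicate 3 (9.41). Intervals and floors cover counting error only. The mean of OXTR was 4.11, under the filter. When the filter was lifted its log2 fold change was -1.14 ± 1.02 (SE, limma, adjusted p = 0.764). No difference was detected with these few reads and libraries.

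AVPR1A, the vasopressin receptor of vascular and other smooth muscle, which oxytocin can also bind (ENSBTAG00000007175), was read at 3.52 and 5.81 in LF/LCL, against 10.4, 8.55 and 4.29 in SF/SCL, from 3, 6, 10, 11 and 4 reads. SF/SCL replicates 1 and 2 were the highest, while SF/SCL replicate 3 lay between the LF/LCL libraries, so that the groups overlapped. The means were 4.66 ± 1.62 (SD, n = 2) and 7.75 ± 3.13 (SD, n = 3). On the log2(value + 1) scale the difference was -0.59 ± 0.69 (SE, limma, adjusted p = 0.803), with a 95% interval from -2.28 to 1.11. As a fold change this interval runs from 0.206-fold to 2.15-fold.

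OXTR and AVPR1A were also compared with each other within each library, as the log2 ratio of their normalized values + 1. It was -2.18 and -0.48 in LF/LCL, against -2.48, 0.49 and -0.33 in SF/SCL. The groups overlapped, and the difference of the means, -0.56, had p = 0.8 by an exact two-sided permutation test (0.8 after adjustment over 2 ratios). This test doubles the smaller tail, and 0.2 is the smallest p it can give for 2 libraries against 3. With 0 and 1 reads of OXTR in 2 libraries, the difference moved with the number added, from -0.88 with 0.5 to -0.14 with 5. Its sign turned without LF/LCL replicate 1 (0.29) or without SF/SCL replicate 2 (0.08).

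The alpha-1 receptors, the Gq-coupled receptors through which noradrenaline contracts muscle, were at or near the limit of detection. ADRA1A (ENSBTAG00000031632) had 0 reads in all 5 libraries. A count of 0 allows up to 3 reads in a library, a normalized read count of 2.33 to 3.52 depending on the library. ADRA1B (ENSBTAG00000040253) had 1 and 0 reads in LF/LCL, against 1, 3 and 1 in SF/SCL, 6 in all, or normalized read counts of 1.17, 0, 1.04, 2.33 and 1.07. No library passed 3 reads for either gene, so no fold change is given, and a difference between the groups was not detectable at this depth. The plot of receptor read counts by library shows these 2 genes at the bottom of its scale.

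**Figure D1:**
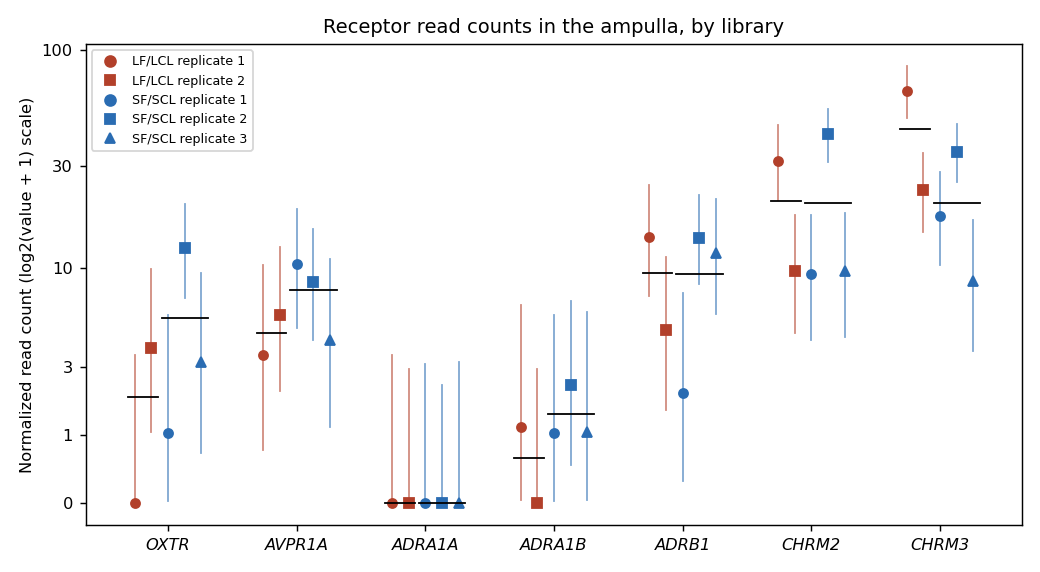
Normalized read count (log2(value + 1) scale) of the 7 receptors found in the table, 1 point for each library, with LF/LCL in red and SF/SCL in blue. Vertical lines are exact 95% Poisson intervals of the reads behind each point. For a count of 0 they reach up to the fixed floor of 3 reads. Short black lines are group means. ADRA1A is at 0 in all libraries, CHRM3 reaches 65.7 in LF/LCL replicate 1, and the red and blue points overlap for every receptor with reads.

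CHRM3, the Gq-coupled muscarinic receptor through which acetylcholine contracts smooth muscle (ENSBTAG00000008059), had 150 reads over the 5 libraries. Its normalized read counts were 65.7 and 23.2 in LF/LCL, against 17.7, 35.0 and 8.59 in SF/SCL, from 56, 24, 17, 45 and 8 reads. LF/LCL replicate 1 was the highest and SF/SCL replicate 3 the lowest, 7.65-fold apart, but LF/LCL replicate 2 lay under SF/SCL replicate 2, so that the groups overlapped. The means were 44.5 ± 30.0 (SD, n = 2) and 20.4 ± 13.4 (SD, n = 3). The fitted difference was 2.16-fold higher in LF/LCL, a log2 fold change of 1.11 ± 0.74 (SE, limma, unadjusted p = 0.181, adjusted p = 0.616), with a 95% interval from 0.624-fold to 7.48-fold.

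Libraries of the same group differed in CHRM3. The Poisson intervals of the LF/LCL libraries, 49.6 to 85.3 and 14.9 to 34.6, did not overlap, and neither did those of SF/SCL replicate 2 (25.5 to 46.8) and SF/SCL replicate 3 (3.71 to 16.9). The smooth muscle markers had their highest mean in the same library as CHRM3, LF/LCL replicate 1, and their lowest in the same library, SF/SCL replicate 3. After the mean log2 value of these markers was subtracted in each library, the log2 fold change of CHRM3 was -0.15 in place of 1.11. This subtraction takes the same amount from the log2 fold change of every gene, so the drop is not particular to CHRM3. A part of muscle content in the CHRM3 values was not tested.

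CHRM2, the Gi-coupled muscarinic receptor, which is found beside CHRM3 in many smooth muscles (ENSBTAG00000014674), had 109 reads. Its normalized read counts were 31.7 and 9.68 in LF/LCL, against 9.36, 42.0 and 9.66 in SF/SCL, from 27, 10, 9, 54 and 9 reads. One library of each group was high, LF/LCL replicate 1 and SF/SCL replicate 2, and the other 3 libraries were close together. The Poisson intervals of these 2 libraries, 20.9 to 46.1 and 31.5 to 54.8, lay above those of the other 3, of which the highest bound was 18.3. The group means, 20.7 ± 15.5 (SD, n = 2) and 20.3 ± 18.7 (SD, n = 3), were nearly equal, and the log2 fold change was 0.15 ± 0.86 (SE, limma, adjusted p = 0.969), with a 95% interval from -1.95 to 2.25. Its sign turned without LF/LCL replicate 1 (-0.65), SF/SCL replicate 1 (-0.20) or SF/SCL replicate 3 (-0.18).

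The share of CHRM2 in the reads of both muscarinic receptors was lower in both LF/LCL libraries than in any SF/SCL library, but the difference did not pass the test. It was 32.5% (exact 95% binomial interval 22.6 to 43.7) and 29.4% (15.1 to 47.5) in LF/LCL. In SF/SCL it was 34.6% (17.2 to 55.7), 54.5% (44.2 to 64.6) and 52.9% (27.8 to 77.0). The interval of SF/SCL replicate 1 held both LF/LCL values. The log2 ratio of CHRM2 to CHRM3, -1.03 and -1.18 against -0.85, 0.26 and 0.15, differed by -0.96 between the group means. An exact two-sided permutation test gave p = 0.2, the smallest that this test can give here, and 0.4 after adjustment over 2 ratios.

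**Figure D2:**
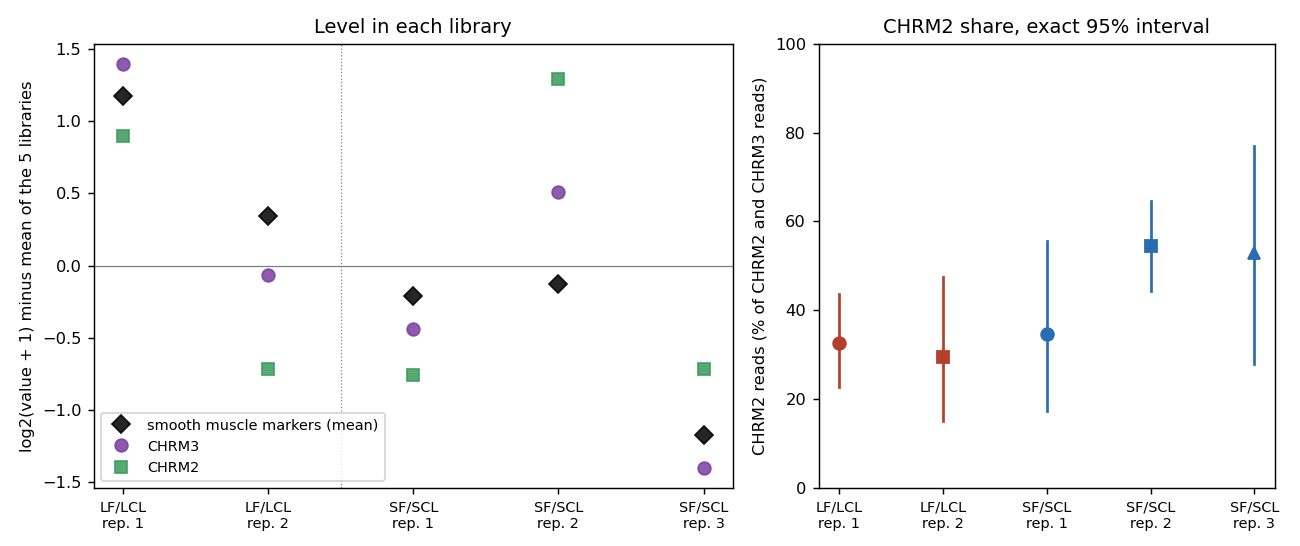
Left, log2(value + 1) of CHRM3, of CHRM2 and of the mean of the smooth muscle markers in each library, as the difference from its own mean over the 5 libraries. Right, CHRM2 reads as a percentage of CHRM2 and CHRM3 reads with exact 95% binomial intervals. CHRM3 and the muscle markers are both highest in LF/LCL replicate 1 and lowest in SF/SCL replicate 3, CHRM2 is highest in SF/SCL replicate 2, and the share of CHRM2 runs from 29.4% to 54.5%.

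ADRB1, a Gs-coupled beta receptor best known from the heart (ENSBTAG00000001242), had 48 reads. Its normalized read counts were 14.1 and 4.84 in LF/LCL, against 2.08, 14.0 and 11.8 in SF/SCL, from 12, 5, 2, 18 and 11 reads. LF/LCL replicate 2 and SF/SCL replicate 1 were low and the other 3 libraries high, so that high and low libraries were found in both groups. The exact 95% Poisson intervals of LF/LCL replicate 2 (1.57 to 11.3) and SF/SCL replicate 1 (0.252 to 7.51) overlapped those of the high libraries. The exception was SF/SCL replicate 1 against SF/SCL replicate 2 (8.29 to 22.1). The means were 9.46 ± 6.53 (SD, n = 2) and 9.29 ± 6.34 (SD, n = 3). The log2 fold change was 0.16 ± 0.93 (SE, limma, adjusted p = 0.970), with a 95% interval from -2.11 to 2.44. It was -0.52 without LF/LCL replicate 1 and -0.56 without SF/SCL replicate 1.

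Across the receptors that could be tested, 0 of 4 passed 0.05 after adjustment in limma, as did 0% of all 15815 genes tested. Before adjustment 0 of 4 passed, against 11.5% of all genes, and in DESeq2 0 of 4 passed after adjustment, against 2.89%. The groups did not overlap for 0 of 4, against 30.1% of all genes, 15.0% with LF/LCL higher and 15.1% with SF/SCL higher. This count was 3 of 4 without LF/LCL replicate 2, 2 of 4 without SF/SCL replicate 2 and 1 of 4 without SF/SCL replicate 3. With fewer libraries the groups of any gene are apart more often. The share of all genes was not counted for these smaller sets, so the 30.1% is no measure for them. The log2 fold change was positive for CHRM3, ADRB1 and CHRM2 and negative for AVPR1A, with a median of 0.16 against 0.01 over all genes tested. This median had no stable sign, being -0.41 without LF/LCL replicate 1, -0.28 without SF/SCL replicate 1, 0.90 without LF/LCL replicate 2 and -0.22 without the filter, which adds OXTR and ADRA1B. With 0 calls in limma over all genes, 1819 genes had an unadjusted p under 0.05. The edgeR quasi-likelihood test called 0 genes, the edgeR exact test 335 and DESeq2 457, and none of the 4 receptors passed in any of the 3. When the muscle marker mean was subtracted in each library, the log2 fold changes were -1.85 for AVPR1A, -1.10 for ADRB1, -1.11 for CHRM2 and -0.15 for CHRM3. Every gene is lowered by the same amount in this way.

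Further receptors of the same families were looked up, and 8 of the 9 described here were in the table. ADRB3, the Gs-coupled beta receptor known from fat and from the bladder wall, was the only one whose groups did not overlap among the 4 listed and 2 further receptors tested, a pattern that 15.0% of all genes showed in this direction. It stood at 25.8 and 80.3 in LF/LCL, against 20.8, 4.66 and 21.5 in SF/SCL, from 22, 83, 20, 6 and 20 reads. Both LF/LCL libraries lay above all SF/SCL libraries, yet LF/LCL replicate 1 and SF/SCL replicate 3 differed by 22 against 20 reads, and LF/LCL replicate 2 stood apart. The log2 fold change was 1.73 ± 0.83 (SE, limma, unadjusted p = 0.080, adjusted p = 0.490), and the value was 0.93 without LF/LCL replicate 2. The adipocyte markers, of which 3 of 5 symbols were in the table, were near 0 in all libraries, at summed values of 0 to 12.9. Which cells the ADRB3 reads came from was not tested.

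ADRA2B, a Gi-coupled alpha-2 receptor of the same class as the ADRA2A gene, had 593 reads. It was read at 227.5 and 75.5 in LF/LCL, against 128.9, 56.7 and 133.1 in SF/SCL, so that LF/LCL replicate 2 fell between the SF/SCL libraries. The log2 fold change was 0.40 ± 0.60 (SE, limma, adjusted p = 0.848), and it was -0.39 without LF/LCL replicate 1. ADRA2C was not analysed here.

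The remaining receptors of the families were sparse. AVPR2, the vasopressin receptor of the kidney, had 15 reads, CHRM1 11, ADRA1D 10 and CHRM4 5, and AVPR1B and CHRM5 had 0. CHRM1 stood at 2.35 and 4.84 in LF/LCL, against 2.08, 0.78 and 1.07 in SF/SCL, with 1 to 5 reads a library. CHRM1 and CHRM4 are the M1 and M4 muscarinic receptors, known best from neurons. Of the muscarinic family, CHRM2 and CHRM3 alone passed the filter.

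**Figure D3:**
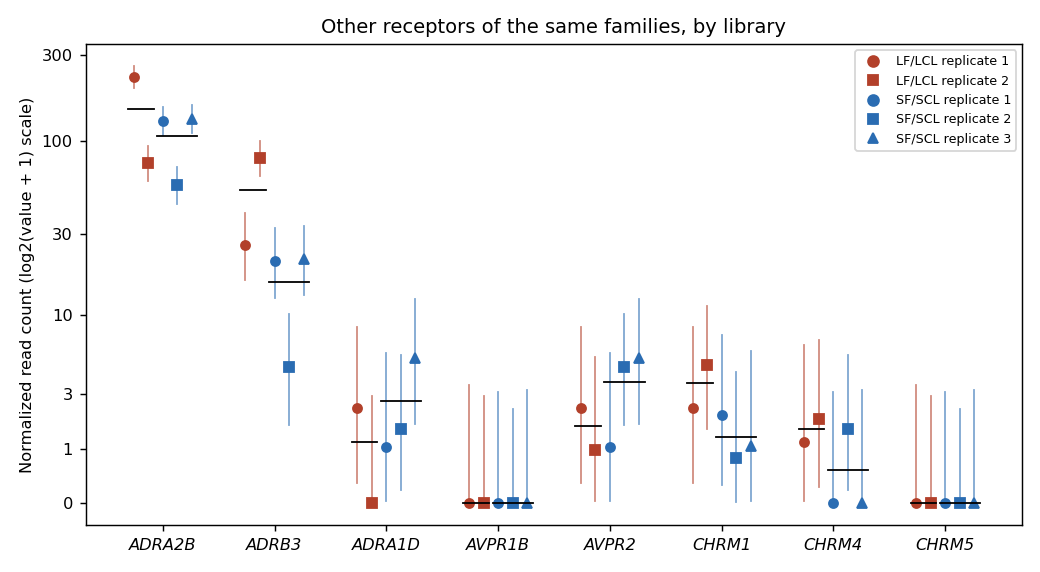
Normalized read count (log2(value + 1) scale) of 8 further receptors of the vasopressin, adrenergic and muscarinic families, with points, intervals and group means as in the plot of the listed receptors. ADRA2B lies above 50 in every library, ADRB3 runs from 4.66 to 80.3 with both red points above the blue ones, and the other 6 genes stay at 6 reads or fewer.

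For the making, carrying and breakdown of the transmitters, the RNA of 18 genes in the ampulla was looked up. Of these, 10 passed the filter and 6 did not overlap between the groups (30.1% of all genes). An unadjusted p under 0.05 was found for 4 (11.5% of all genes), 2 in each direction. All 6 make, carry or break down noradrenaline and related amines. DBH, which turns dopamine into noradrenaline, stood at 25.8 and 47.4 in LF/LCL, against 5.20, 0 and 7.51 in SF/SCL, and both LF/LCL libraries were well above all SF/SCL libraries. DBH passed the filter only through LF/LCL, with a mean of 36.6 there and of 4.24 in SF/SCL, yet it counts among the 6 and the 4. It was not tested under the stricter filter, which also asks for a mean above the standard deviation. Its log2 fold change was 3.26 ± 1.05 (SE, limma, adjusted p = 0.355). It was 2.31 without SF/SCL replicate 2, the library at 0, 3.86 without SF/SCL replicate 3 and 2.22 when 5 in place of 1 was added to the values. PNMT, which turns noradrenaline into adrenaline, went the other way, with 23.5 and 15.5 in LF/LCL against 41.6, 50.5 and 50.4 in SF/SCL and a log2 fold change of -1.27 ± 0.39 (SE, limma, adjusted p = 0.343).

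The mitochondrial amine oxidases also differed in direction. MAOB stood at 1610 and 1006 against 850.5, 760.8 and 576.3 (log2 fold change 0.82 ± 0.25, SE, limma, adjusted p = 0.345). MAOA stood at 1031 and 876.0 against 1227, 1332 and 1070.0 (-0.34 ± 0.14, SE, limma, adjusted p = 0.428). The last 2 of the 6 were the amine carriers SLC18A2 and SLC22A3, which were higher in LF/LCL and are named here after their values were seen. Neither had an unadjusted p under 0.05. TH, which makes the first step towards noradrenaline in nerves, had 18 reads over all libraries, with 0 to 10.7 normalized reads and overlapping groups.

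On the side of acetylcholine, CHAT, which makes it, and its carriers SLC5A7 and SLC18A3 had 0 reads in every library. Transmitters and hormones that reach the wall by nerves or blood were not measured. Few or no reads of the genes that make them therefore do not show a lack of supply. ACHE, which breaks acetylcholine down and is named here after its values were seen, stood at 274.4 and 1364 in LF/LCL, against 312.9, 9.33 and 320.9 in SF/SCL. LF/LCL replicate 2 was the highest and SF/SCL replicate 2 far under the other 4 libraries. The groups overlapped, and the log2 fold change was 2.60 ± 1.67 (SE, limma, adjusted p = 0.607). Reads of OXT, the oxytocin gene, were 11 in all and of AVP, the vasopressin gene, 2, while LNPEP, a peptidase that cleaves oxytocin, ranged from 410.0 to 544.8 normalized reads over the 5 libraries with overlapping groups.

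**Figure D4:**
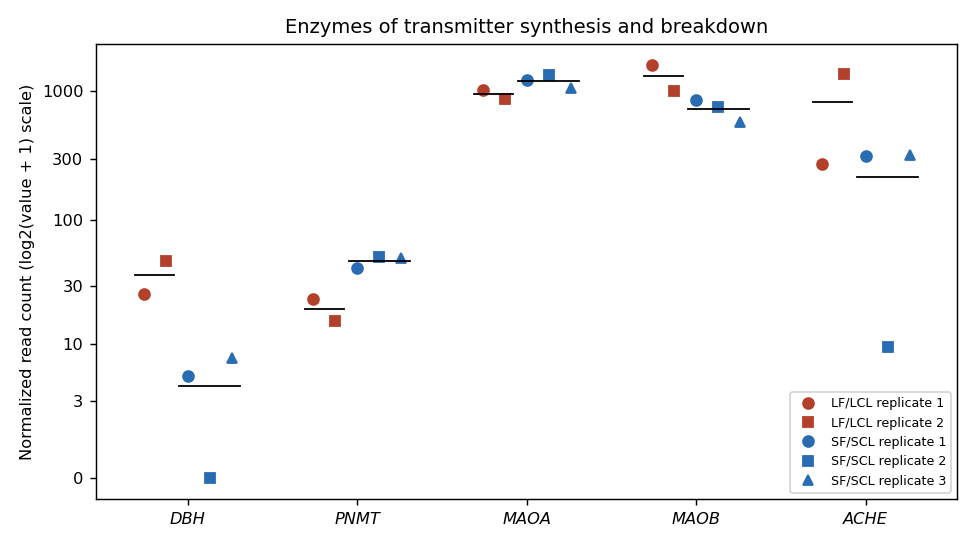
Normalized read count (log2(value + 1) scale) of the 4 amine enzymes with an unadjusted p under 0.05 and of ACHE, 1 point for each library, with short black lines at the group means. DBH and MAOB are higher in both LF/LCL libraries, PNMT and MAOA in all 3 SF/SCL libraries, and ACHE overlaps, with 9.33 in SF/SCL replicate 2 and 1364 in LF/LCL replicate 2.

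Downstream of the receptors, 13 entries of G protein alpha subunits, 24 second messenger effectors and 7 receptor kinases and arrestins were tested. The groups did not overlap for 5, 8 and 4 of them, against 30.1% of all genes. An unadjusted p under 0.05, which 11.5% of all genes had, was found for 1 alpha subunit, 6 effectors and 1 kinase, 4 with LF/LCL higher and 4 with SF/SCL higher. GNAI2 is a subunit of the Gi class, to which CHRM2 and the alpha-2 receptors couple. It had 5441 and 5442 in LF/LCL, against 4463, 4131 and 4234 in SF/SCL, without overlap. Its log2 fold change was 0.35 ± 0.10 (SE), with an adjusted p of 0.307 in limma and 0.040 in DESeq2. It was the only gene of these pathway lists that passed in DESeq2, where 2.89% of all genes passed. Other subunits of this class, named here after their values were seen, overlapped between the groups and did not go one way. The LF/LCL mean over the SF/SCL mean was 1.28 for GNAI1, 0.92 for GNAI3, 2.53 for GNAO1 and 0.87 for GNAZ.

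Among the effectors, PLCB1, a phospholipase C that Gq activates, had a log2 fold change of 0.88 ± 0.28 (SE, limma, adjusted p = 0.350). Other such phospholipases of the list, named here after their values were seen, were not higher in LF/LCL by mean. The LF/LCL mean over the SF/SCL mean was 0.78 for PLCB2, 0.93 for PLCB3 and 0.87 for PLCB4, with overlapping groups. The adenylyl cyclases, which make cyclic AMP, did not go one way, with 1.24 ± 0.42 for ADCY5 and 0.81 ± 0.32 for ADCY8 against -0.75 ± 0.31 for ADCY2 (SE, limma, adjusted p = 0.369, 0.420 and 0.427). PRKCE, a protein kinase C, stood at -0.48 ± 0.19. ADRBK2, a kinase that marks active receptors for arrestin, stood at -0.37 ± 0.13 (SE, limma, adjusted p = 0.373). Over these 5 lists, the other receptors included, 12 of 56 genes tested (21.4%) had an unadjusted p under 0.05, against 11.5% of all genes. Of these 12, 6 went in each direction. The groups did not overlap for 24 of the 56 (42.9%), against 30.1%. After adjustment 0 passed in limma, against 0% of all genes, and 1 in DESeq2, against 2.89%.

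**Figure D5:**
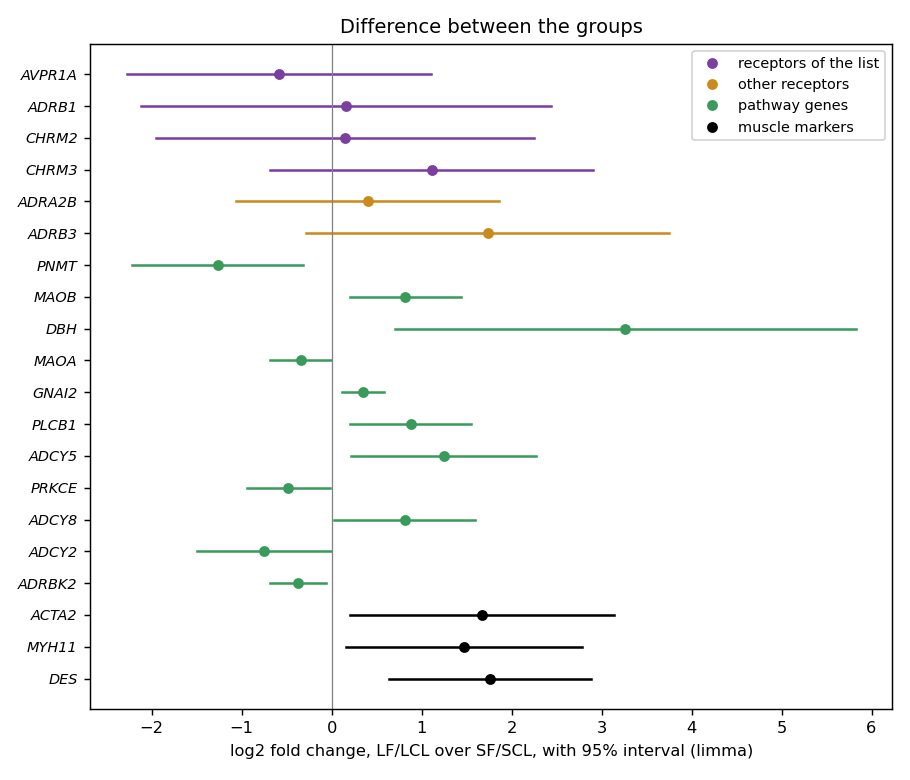
Log2 fold change, LF/LCL over SF/SCL, with its 95% interval in limma, for the 4 listed receptors that were tested, 2 other receptors, 11 pathway genes with an unadjusted p under 0.05 and the 3 smooth muscle markers with the highest mean. The intervals of all 6 receptors include 0, CHRM3 lies at 1.11 and the muscle markers ACTA2, MYH11 and DES lie at 1.67, 1.47 and 1.76.

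For each receptor tested, the genes with the most similar profile over the 5 libraries were found as those with the smallest root mean square difference of log2 values after each gene's mean was subtracted, among 11952 genes with a symbol and a mean of at least 50. For CHRM3 they were GNAO1, a Gi/o alpha subunit (0.227), MYH11, the smooth muscle myosin heavy chain (0.233), and KCNMB1, a subunit of the calcium-activated potassium channel of smooth muscle (0.238), against a median of 0.956 over all candidates. MYH11 stood at 29099 and 12200 in LF/LCL, against 6960, 11185 and 4020 in SF/SCL, highest and lowest in the same libraries as CHRM3, while LF/LCL replicate 2 and SF/SCL replicate 2 had changed places. MYH11 and KCNMB1 belong to the smooth muscle markers used here.

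The nearest profile to CHRM2 was that of ITIH5 (0.198), which stood at 423.4 and 190.7 in LF/LCL, against 128.9, 530.8 and 142.7 in SF/SCL, high in the same 2 libraries as CHRM2. PCDHB4 (0.361) and TMEM130 (0.424) followed, with a median of 0.927 over all candidates. The nearest to AVPR1A were SLC4A8 (0.131), TIMP4 (0.146) and DTX4 (0.157), with a median of 0.537. For ADRB1 they were C5H12orf39 (0.291), POLA2 (0.302) and ADAMTS18 (0.309), with a median of 0.935. These likenesses rest on 5 points that share the scaling and depth of their libraries and are a description with no test. The profiles of AVPR1A and ADRB1 also rest on few reads, 3 to 11 a library for AVPR1A and 2 to 18 for ADRB1. The Poisson intervals of the AVPR1A libraries all overlapped one another. Those of ADRB1 did so too, except SF/SCL replicate 1 against SF/SCL replicate 2. How far counting error shapes these profiles, and so their nearest genes, was not tested.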

How the data were processed

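Ampulla RNA of 5 cows was measured with polyA TruSeq libraries read in pairs. The authors cleaned reads with seqyClean, aligned them to masked UMD 3.1 with TopHat2 2.0.8 and Bowtie2 2.1.0, counted uniquely mapped reads per gene with HTSeq 0.5.4p2, and divided by DESeq 1.12.1 size factors. The deposited unit is this normalized signal. The strand setting is not given in the sources used here, so overlapping, antisense and near-identical genes are uncertain, as is MYL9, which has 2 entries.

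Each value divided by the value of 1 read (0.777 to 1.17 in a library) gave whole reads (100% within 0.1). The main test was limma 3.58.1 (trend and robust) on log2(value + 1) for genes with a mean over 5, two-sided, Benjamini-Hochberg adjusted over all 15815 genes, threshold 0.05, fold changes being LF/LCL over SF/SCL. This scale understates changes of low genes. Recovered reads were tested with edgeR 4.0.16 and DESeq2 1.42.0, and the scripts were tested on simulated counts. Ratios within a library were compared by exact permutation tests (scipy 1.17.1). Replicates are separate animals numbered in the order of the labels.

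The receptors and the pathway and cell type marker lists were chosen with earlier results of these data known. Genes named were the 8 receptors, the other receptors of the families, up to 5 genes a list with an unadjusted p under 0.05, the 3 muscle markers with the highest mean and the 3 most similar genes of each receptor. Alternatives were other scalings, pseudocounts, filters and tools, and leaving out each library. Values relative to the smooth muscle markers were added after seeing the data. A gene of these families is not reported here. Sequences, transcript lengths and coordinates were not used here.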

Additional observations from a re-analysis of the deposited data

How the results depend on the processing

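The 4 receptors tested passed no threshold under any alternative fit (other tools, TMM or library size scaling, pseudocounts of 0.5 and 5, no filter, the stricter filter, plain eBayes, leaving out a library). Of these fits with all 5 libraries, only DESeq2 (457 genes) and the edgeR exact test (335) called any gene after adjustment. In the others no receptor could have stood out by passing. Of the alternative values for single genes, 247 kept direction and side of the threshold, 11 turned direction and 1 passed (GNAI2, DESeq2, log2 fold change 0.35, adjusted p 0.040). The filters and plain eBayes leave the fold change of a gene as it was, so it could not turn there. The median log2 fold change of the receptors tested, 0.16, was -0.0077 in edgeR's quasi-likelihood fit, -0.22 with no filter and -0.41 to 0.90 when 1 library was left out (-0.28 without SF/SCL replicate 1). In edgeR's quasi-likelihood fit ADRB1 was at -0.0082 and CHRM2 at -0.0072. Leaving out 1 library gave -0.56 to 0.84 for ADRB1 (-0.52 without LF/LCL replicate 1), -0.65 to 0.96 for CHRM2 (-0.20 without SF/SCL replicate 1, -0.18 without SF/SCL replicate 3), 0.38 to 1.84 for CHRM3, -0.39 (without LF/LCL replicate 1) to 1.19 for ADRA2B, 0 to 3 receptors that did not overlap (2 and 1 without SF/SCL replicates 2 and 3), -1.41 to 0.29 for the OXTR to AVPR1A ratio (0.08 without SF/SCL replicate 2, and -0.88 and -0.14 with pseudocounts of 0.5 and 5) and -1.31 to -0.76 for the CHRM2 to CHRM3 ratio. Relative to the muscle markers, ADRB1 was at -1.10, CHRM2 at -1.11 and CHRM3 at -0.15, since each difference then has the markers' own difference taken from it. Apart from that, the cause of the changes was not tested. Without an LF/LCL library, the lone library left is assumed to vary like the others. Counts of receptors that did not overlap rise with fewer libraries for any genes, and no share of all genes was counted there. Ratios planned with ADRA1A and ADRA1B gave no value, as neither passed 3 reads in a library. OXTR, with 24 reads, AVPR1A, with 34, and ADRA1B, with 6, rest on few reads and few libraries. Which of these limits their comparison was not tested.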

Other observations

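Single libraries held the highest or lowest value of several of the genes named here. SF/SCL replicate 2, the most deeply sequenced library, had the highest normalized value of OXTR (12.4), ADRA1B (2.33) and CHRM2 (42.0) and the lowest of ADRA2B (56.7), ADRB3 (4.66), CHRM1 (0.78), DBH (0) and ACHE (9.33). LF/LCL replicate 1 had the highest value of CHRM3 (65.7), ADRB1 (14.1) and ADRA2B (227.5) and the lowest of OXTR (0) and AVPR1A (3.52). Some of these extremes rest on few reads or lie close to another library. In SF/SCL replicate 2, ADRA1B had 3 reads and CHRM1 had 1, as CHRM1 did in SF/SCL replicate 3. ADRB1 stood at 14.0 in SF/SCL replicate 2. AVPR1A had 3 reads in LF/LCL replicate 1 and 4 in SF/SCL replicate 3.

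The other marker lists are given by their median log2 fold change and by how many of those tested did not overlap, which 15.0% of all genes did with LF/LCL higher and 15.1% with SF/SCL higher. The glial and neuronal markers had a median of 1.38 (4 of 7 higher in LF/LCL), the stromal fibroblast markers 0.82 (2 of 8), the pericyte markers 0.51 (1 of 6) and the secretory cell markers 0.40 (4 of 7). The immune cell markers had 0.36, 5 of 10 being higher in LF/LCL and 1 lower. The endothelial markers had 0.16 (1 of 8, higher in SF/SCL), the mast cell markers 0.08 (0 of 3) and the mesothelial markers -0.52 (0 of 4). The ciliated cell markers had -0.56 (9 of 9, higher in SF/SCL), and 0 adipocyte markers passed the filter. Their part in the receptor values was not tested.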
